A study of Rattus norvegicus with 3 samples.

Results

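The peaks described here lie in the first 15 Mb of rat chromosome 9 (build rn6) in round spermatids, haploid male germ cells between meiosis and elongation. They comprise 222 of the 7684 H3K4me3 peaks and 1027 of the 49591 H3K9me3 peaks of the study, or 1249 of 57275 peaks in all. A peak belongs to the region if it sits on chromosome 9 and starts below position 15000000. The region was chosen by the density of both marks in these same lists, so its peak density is a description and is not tested. The rest of chromosome 9, from 15 Mb to the last peak end at 122 Mb, held 240 H3K4me3 peaks and 622 H3K9me3 peaks and served as the comparison. All 3 libraries came from round spermatids of untreated Sprague-Dawley rats. There was 1 library from the H3K4me3 precipitate (antibody ab12209), 1 from the H3K9me3 precipitate (antibody ab8898) and 1 made without antibody. A peak is taken here as a site where the precipitate exceeded the antibody-free control. The labels do not say so, and the lists' names would also allow peaks called with precipitate and control exchanged.

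H3K4me3 is written by SET1 and MLL methyltransferase complexes, and it typically marks the start of active or poised genes. H3K9me3 is written by enzymes such as SUV39H and SETDB1, is bound by the HP1 proteins, and is best known from silent repeats, pericentric sequence and clusters of related genes. The marks are usually found apart. A stretch on which both are called can come from different cells or from the same nucleosomes, among other sources, and none was tested here. Later in spermiogenesis most histones are replaced by protamines, so round spermatids show the histone marks shortly before that exchange.

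In the first 15 Mb of chromosome 9, most H3K4me3 peaks lay on H3K9me3, in a few crowded clusters, whereas most H3K9me3 peaks carried no H3K4me3, among them a block with almost none. Of the 222 H3K4me3 peaks, 183 overlapped an H3K9me3 peak by at least 1 bp (82.4%, 95% Wilson interval 76.9 to 86.9%). In the rest of the chromosome 33 of 240 did so (13.75%, 9.96 to 18.7%). The share over chromosomes 1 to 20, X and Y was 31.9%, and 30.4% with the region left out. The proximal region held 183 of the 216 H3K4me3 peaks of chromosome 9 that lay on H3K9me3. These intervals cover counting error only and treat peaks as independent, which peaks of 1 cluster are not. Each mark rests on 1 library of unknown depth, so no difference below has a replicate check or a p-value.

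Most of the dense H3K4me3 of the region was H3K4me3 on H3K9me3, with the window from 10 to 11 Mb, described below, as an exception. H3K4me3 peaks numbered 14.8 per Mb (95% Poisson interval 12.9 to 16.9) against 2.24 per Mb (1.97 to 2.54) in the rest of the chromosome, 6.60 times as many. Without the 2 densest H3K4me3 windows, from 8 to 9 and from 12 to 13 Mb, the region stood at 7 per Mb (5.64 to 8.59), 3.12 times the rest. Peaks on H3K9me3 stood at 12.2 per Mb (10.5 to 14.1) against 0.308 per Mb (0.212 to 0.433), 39.6 times as many. Peaks off H3K9me3 stood at 2.60 per Mb (1.85 to 3.55) against 1.93 per Mb (1.68 to 2.22). The intervals overlap only for the peaks off H3K9me3. All these densities describe the lists and were not tested.

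H3K9me3 was the more extensive mark. Its peaks numbered 68.5 per Mb (64.3 to 72.8) against 5.81 per Mb (5.36 to 6.29), 11.8 times as many, and covered 9.53% of the region against 0.588% of the rest. With H3K9me3 peaks closer than 1 kb joined to 1, the densities were 37.6 and 4.26 per Mb, 8.82 times as many in the region, and with only peaks at or above the list's median score 43.8 and 2.21 per Mb. H3K4me3 peaks covered 1.62% of the region and 0.237% of the rest. The region spans 12.3% of the chromosome and held 48.1% of its H3K4me3 peaks and 62.3% of its H3K9me3 peaks. Viewed from H3K9me3, the overlap was the smaller part, because 158 of 1027 H3K9me3 peaks lay on H3K4me3 (15.4%, 13.3 to 17.7%). That share was 33 of 622 in the rest (5.31%, 3.80 to 7.36%), 4.44% over all chromosomes and 4.20% over these with the region left out. Without the clusters described below, the share in the region was 5.65%. A fall is built into that setting, because the clusters are defined by crowded H3K4me3 peaks, and the rest kept its own cluster.

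**Figure D1:**
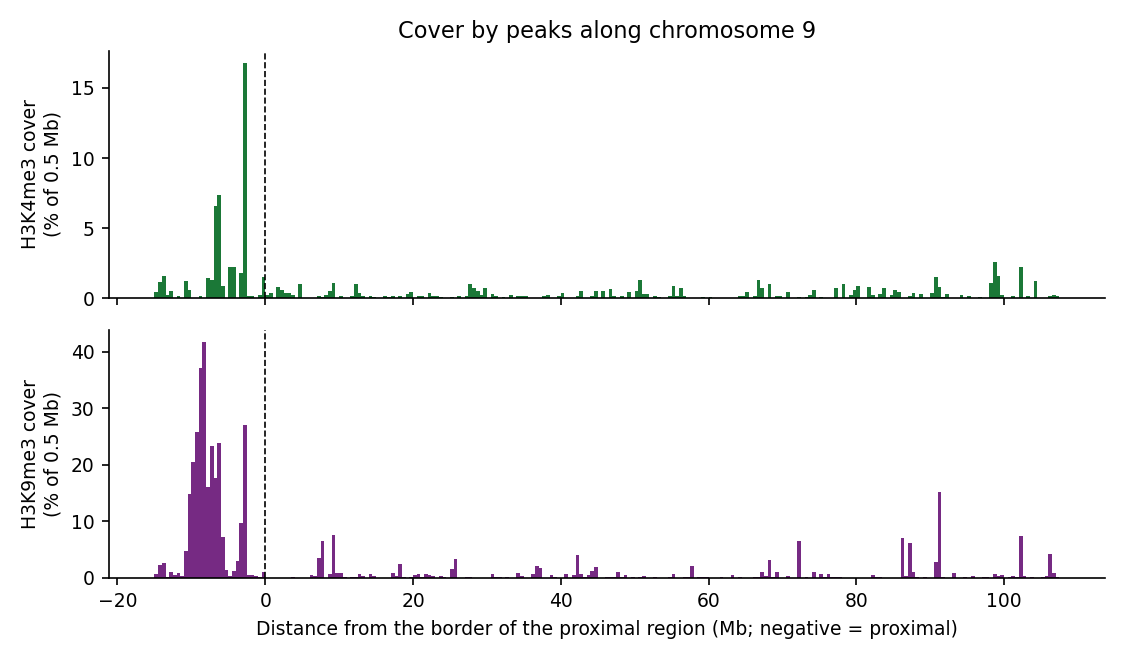
Share of each 0.5-Mb window of chromosome 9 that peaks cover, for H3K4me3 (top, %) and H3K9me3 (bottom, %), against the distance from the border of the proximal region in Mb (dashed line; negative values are proximal). Both marks are high to the left of the line, where they cover 1.62% and 9.53% of the 15 Mb, against 0.237% and 0.588% to its right.

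The marks followed each other in blocks along the region. Borders of these blocks were set after the values had been seen, and windows count a peak by its start. From 0 to 4 Mb there were 22 H3K4me3 peaks, of which 17 lay on H3K9me3, and 37 H3K9me3 peaks. The window from 4 to 5 Mb held 11 H3K4me3 peaks, 10 of them on H3K9me3, among 85 H3K9me3 peaks.

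From 5 to 7 Mb the region carried H3K9me3 nearly alone. This stretch held 398 H3K9me3 peaks, 38.8% of those in the region, which covered 31.3% of the sequence. It held 1 H3K4me3 peak, at chr9:6447835-6448574, with the authors' score of 44.3 and no overlap with H3K9me3. That is 0.5 H3K4me3 peaks per Mb (0.0127 to 2.79), an interval that includes the 2.24 per Mb of the rest of the chromosome. Few H3K4me3 peaks were common there too, with a median of 1 per 1-Mb window and none in 20 of 108 windows. None of the 398 H3K9me3 peaks lay on H3K4me3, against 4.44% over all chromosomes. The window from 6 to 7 Mb was the densest H3K9me3 window of the chromosome with 248 peaks over 394 kb, and the window from 5 to 6 Mb followed with 150 peaks over 231 kb. The median gap between neighbouring H3K9me3 peaks was 0.822 kb in these 2 windows, so peaks there were often separated by less than their own median width of 1102.5 bp.

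Beyond 7 Mb, H3K4me3 appeared inside dense H3K9me3. From 7 to 9 Mb, 77 of 80 H3K4me3 peaks lay on H3K9me3, among 298 H3K9me3 peaks that covered 20.3% of the sequence. The window from 8 to 9 Mb alone held 65 H3K4me3 peaks and 165 H3K9me3 peaks, and that from 7 to 8 Mb held 15 and 133. The window from 9 to 10 Mb held 3 H3K4me3 peaks, all on H3K9me3, and 34 H3K9me3 peaks.

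The window from 10 to 11 Mb was the reverse of its neighbours. It held 20 H3K4me3 peaks, the third highest H3K4me3 cover on the chromosome at 22.3 kb, and none of the 20 overlapped any of its 9 H3K9me3 peaks. These H3K4me3 peaks were 624 to 1908 bp wide, with scores from 30.7 to 159.9. The highest score, 159.9, was at chr9:10800425-10801954. A pair of peaks at chr9:10169540-10171447 and chr9:10172742-10174636 followed with scores of 130 and 142. This window supplied 20 of the 39 H3K4me3 peaks off H3K9me3 in the region. Without it, 19 such peaks in 14 Mb gave 1.36 per Mb (0.817 to 2.12), below the 1.93 per Mb of the rest of the chromosome, although the intervals overlap.

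Dual peaks returned from 11 to 13 Mb. The window from 11 to 12 Mb held 11 H3K4me3 peaks, 9 of them on H3K9me3, and 55 H3K9me3 peaks. The window from 12 to 13 Mb held 66 H3K4me3 peaks, 64 of them on H3K9me3, and 98 H3K9me3 peaks, of which 51 lay on H3K4me3. Together with the window from 8 to 9 Mb it held 131 of the 222 H3K4me3 peaks, or 59.0%. From 13 to 15 Mb the density fell back to 8 H3K4me3 and 13 H3K9me3 peaks, of which 3 of each overlapped.

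**Figure D2:**
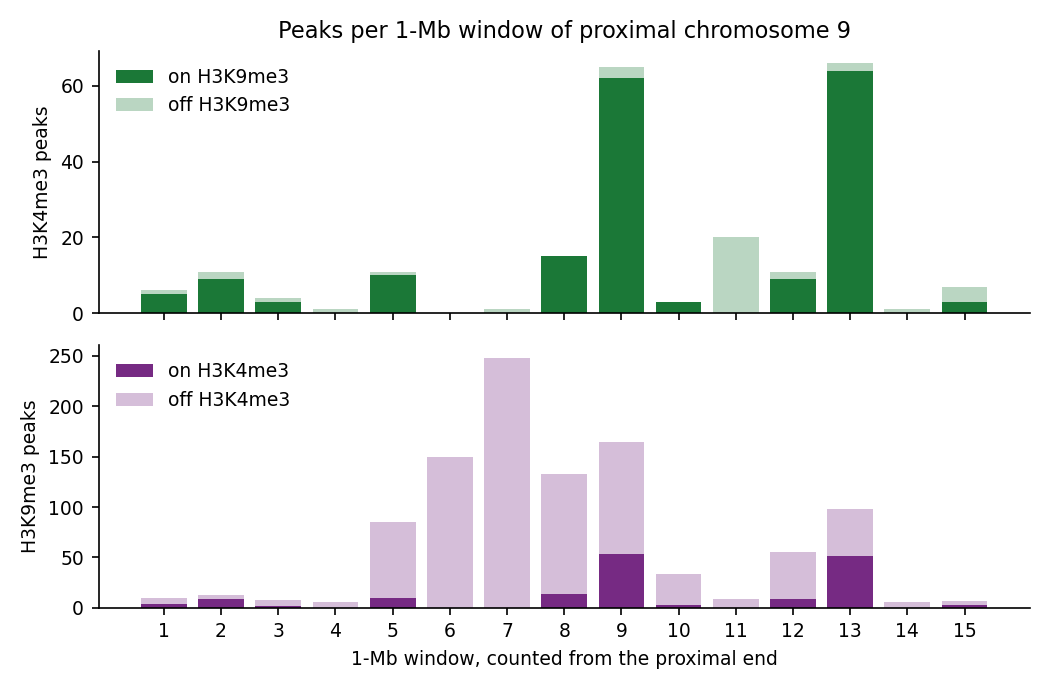
Number of H3K4me3 peaks (top) and H3K9me3 peaks (bottom) in each of the 15 windows of 1 Mb, counted from the proximal end, split into peaks on the other mark (dark) and off it (light). Windows 6 and 7 hold 398 H3K9me3 peaks and 1 H3K4me3 peak, windows 9 and 13 hold 65 and 66 H3K4me3 peaks that are nearly all on H3K9me3, and window 11 holds 20 H3K4me3 peaks that are all off it.

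The border at 15 Mb lay in sparse sequence. The last H3K4me3 peak inside was chr9:14903819-14905488 with a score of 190, and the first outside was chr9:15393325-15394427 with a score of 75.5. The last H3K9me3 peak inside was chr9:14874831-14875419 with a score of 42.75, and the next one, chr9:18666049-18666697 with a score of 37.8, began 3666 kb beyond the border. From 15 to 20 Mb the lists held 17 H3K4me3 peaks, none on H3K9me3, and 1 H3K9me3 peak.

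Most of the H3K4me3 peaks sat in 5 clusters, defined as at least 10 H3K4me3 peaks with less than 50 kb between neighbours. These held 143 of the 222 peaks (64.4%) in 910 kb, which is 6.07% of the region. Of the 143, 139 lay on H3K9me3 (97.2%, 93.03 to 98.9%). Of the 79 H3K4me3 peaks outside the clusters, 44 did so (55.7%, 44.7 to 66.1%), which was still above the 13.75% of the rest of the chromosome.

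The first cluster, chr9:7435493-7533256, held 15 H3K4me3 peaks in 97.8 kb, all on H3K9me3. Its H3K4me3 scores were low, with a median of 53.1 and a maximum of 147, whereas its 30 H3K9me3 peaks had a median of 251 and a maximum of 2511. It had the highest median H3K9me3 score of the 5 clusters.

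The next 3 clusters lay close together beyond 8 Mb. The cluster at chr9:8281516-8484323 held 29 H3K4me3 peaks in 203 kb, all on H3K9me3, and 54 H3K9me3 peaks. The cluster at chr9:8554017-8680861 held 17 in 127 kb, of which 14 were on H3K9me3, and 27 H3K9me3 peaks. The cluster at chr9:8855634-9022756 held 21 in 167 kb, all on H3K9me3, and 48 H3K9me3 peaks. Median H3K4me3 scores in these 3 clusters were close, at 64.25, 64.2 and 62.4, and the H3K9me3 peaks covered 32.3%, 26.3% and 41.0% of the sequence.

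The largest cluster, chr9:12167123-12482602, held 61 H3K4me3 peaks in 315 kb, of which 60 lay on H3K9me3. H3K4me3 peaks covered 25.7% of it and H3K9me3 peaks 37.7%, and 96.6% of the length under H3K4me3 was also under H3K9me3. Its median H3K4me3 score was 102, above the 53.1 to 64.25 of the other 4 clusters, and the median gap between H3K4me3 peaks was 993 bp. By number of H3K4me3 peaks it ranked 3 of the 76 such clusters found on 16 chromosomes.

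Clusters of this kind usually carried both marks elsewhere too. Of the 71 clusters outside the region, 54 had at least 90% of their H3K4me3 peaks on H3K9me3, and their median share was 100%. The region held 5 of the 76 clusters and 143 of their 1464 H3K4me3 peaks, or 9.77%, in 0.540% of the chromosomes' span. High overlap inside clusters was therefore found on other chromosomes as well. The rest of chromosome 9 held 1 cluster.

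Spacing followed this clustering. The median gap from the end of one H3K4me3 peak to the start of the next was 3.68 kb in the region, with quartiles of 0.622 and 16.6 kb, and 222 kb in the rest, with quartiles of 13.6 and 688 kb. Without the 5 clusters the median gap in the region was 15.9 kb. For H3K9me3 the median gap was 1.204 kb (0.328 to 4.97 kb) in the region and 6.985 kb (0.900 to 104 kb) in the rest.

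Gaps over 100 kb made up 12.7% of H3K4me3 gaps in the region and 61.1% in the rest. For H3K9me3 the values were 3.12% and 25.3%. Gaps under 1 kb, at which a caller could have joined the neighbours, made up 32.6% of H3K4me3 and 45.1% of H3K9me3 gaps in the region, against 13.8% and 26.7% in the rest.

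**Figure D3:**
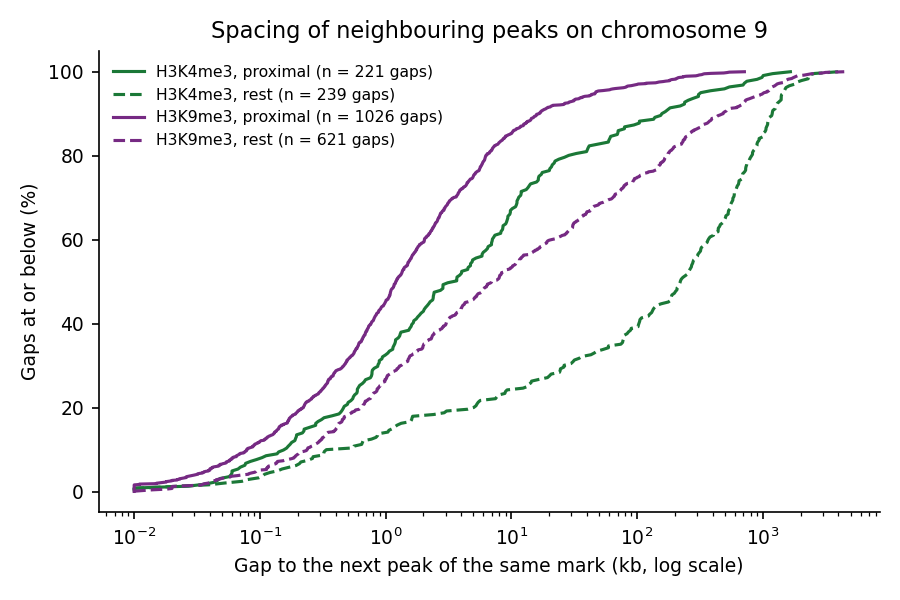
Cumulative share (%) of gaps between neighbouring peaks of the same mark against the gap length in kb on a log scale, for the proximal region (solid) and the rest of chromosome 9 (dashed). The solid H3K4me3 line crosses 50% at 3.68 kb and the dashed one at 222 kb, while the H3K9me3 lines cross at 1.204 and 6.985 kb.

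H3K9me3 also ran in long strings of peaks. When H3K9me3 peaks less than 10 kb apart were taken as 1 run, the region held 25 runs of at least 10 peaks, with 696 of its 1027 H3K9me3 peaks (67.8%). The rest of the chromosome held 7 such runs with 136 of 622 peaks (21.9%). Isolated H3K9me3 peaks made up 5.55% in the region and 32.3% in the rest.

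The longest run, chr9:6398623-6683643, held 88 H3K9me3 peaks in 285 kb, covered to 53.6%, and enclosed the 1 H3K4me3 peak of the 5 to 7 Mb stretch. The second in number of peaks was chr9:12294118-12500798, with 64 H3K9me3 peaks, and it enclosed 50 H3K4me3 peaks, 49 of them on H3K9me3. Long H3K9me3 runs thus came in both forms, as 13 of the 25 held no H3K4me3 peak and 12 held at least 1. The 7 runs in the rest of the chromosome split in a like way, with 3 that held none and 4 that held at least 1.

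Where the marks met, the H3K4me3 peak usually lay inside the H3K9me3 peak. There were 192 overlapping pairs, formed by 183 H3K4me3 and 158 H3K9me3 peaks. The H3K4me3 peak was wholly enclosed in 126 pairs (65.6%), and the H3K9me3 peak was the wider one in 155 (80.7%). The median distance between the centres was 172 bp, with quartiles of 44.5 and 616.5 bp, which is small beside the median widths of 914.5 bp for H3K4me3 and 1679 bp for H3K9me3 in these pairs.

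Over the whole region 81.1% of the length under H3K4me3 was also under H3K9me3, against 13.5% in the rest. H3K9me3 peaks lay over 81.1% of H3K4me3 centres, over 35.1% and 45.5% of positions 2 kb before and after them, and over 23.9% of positions 20 kb away on either side. In the rest of the chromosome the values were 12.5% at the centre, 5.42% and 6.25% at 2 kb, and 2.50% and 0.833% at 20 kb. The share peaked at the centre of H3K4me3 peaks in both parts of the chromosome.

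Some H3K9me3 peaks carried several H3K4me3 peaks. In the region 23 of the 158 H3K9me3 peaks on H3K4me3 overlapped at least 2, against 2 of 33 in the rest. The largest such number was 6, on the H3K9me3 peak chr9:12334435-12342785, and the peak chr9:8879933-8886896 carried 5.

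**Figure D4:**
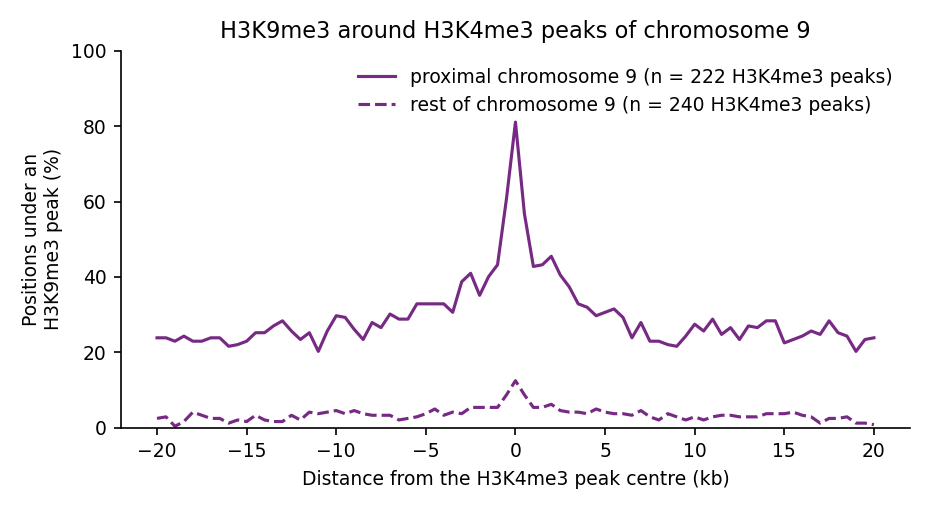
Share (%) of positions that lie under an H3K9me3 peak, against the distance in kb from the centre of H3K4me3 peaks, for 222 peaks of the proximal region (solid) and 240 peaks of the rest of chromosome 9 (dashed). The share is 81.1% at the centre in the region and 12.5% in the rest, and at 20 kb on either side it is 23.9% in the region.

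Widths differed little for H3K4me3 and more for H3K9me3. The median H3K4me3 width was 899 bp (quartiles 693 and 1258 bp) in the region and 852.5 bp (676 and 1203 bp) in the rest. The median H3K9me3 width was 988 bp (697 and 1642.5 bp) against 791 bp (644 and 1123.5 bp). Over the whole lists the medians were 889 bp for H3K4me3 and 927 bp for H3K9me3. The H3K9me3 median of the region thus lay nearer to that of its whole list than the median of the rest did. Peaks wider than 3 kb made up 8.08% of H3K9me3 peaks in the region, 2.09% in the rest and 6.72% over all chromosomes. The H3K4me3 share was 2.70% in the region, near the 2.94% over all chromosomes and the 2.5% of the rest.

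The 5 widest H3K9me3 peaks were chr9:5924349-5937137 (12789 bp), chr9:6640864-6652223 (11360 bp), chr9:5004793-5014432 (9640 bp), chr9:12334435-12342785 (8351 bp) and chr9:6671753-6679901 (8149 bp). The peak of 8351 bp overlapped 6 H3K4me3 peaks, and the other 4, all between 5 and 7 Mb, overlapped none, beside 869 of all 1027 H3K9me3 peaks that overlapped none. The 5 widest H3K4me3 peaks ran from 3200 to 4737 bp, and each overlapped H3K9me3, as did 183 of all 222 in the region.

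The score is the authors' value for each peak, on a scale that is not stated, and is used here to rank peaks within a list. The lowest score in both lists was 30. The median H3K4me3 score was 64.0 in the region (quartiles 44.5 and 130) and 46.5 in the rest (34.5 and 77.1). The median H3K9me3 score was 84.1 (48.45 and 188) against 48.4 (36.3 and 85.0). In the region 69.8% of H3K4me3 peaks and 64.0% of H3K9me3 peaks reached the median of their whole list, against 45% and 37.9% in the rest and 49.8% and 50.1% over all chromosomes.

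H3K9me3 peaks that carried H3K4me3 were the stronger ones. The 158 H3K9me3 peaks on H3K4me3 had a median score of 363 (interval of the median 291 to 428) and a median width of 1359.5 bp. The 869 off H3K4me3 had a median score of 71.35 (66.6 to 77.1) and a median width of 938 bp. The share on H3K4me3 was 7 of 270 (2.59%) at scores under 50, 54 of 156 (34.6%) from 200 to 500, and 21 of 25 (84%, 65.3 to 93.6%) at 1000 and above.

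The same order was seen within a narrow range of widths. Among H3K9me3 peaks 1 to 2 kb wide, 1 of 134 lay on H3K4me3 at scores from 50 to 100 (0.746%, 0.132 to 4.11%), 27 of 47 at 200 to 500 (57.4%, 43.3 to 70.5%) and 16 of 18 at 500 to 1000 (88.9%, 67.2 to 96.9%). In the rest of the chromosome, the same widths and scores gave 2 of 87 (2.30%), 3 of 16 (18.75%, 6.59 to 43.0%) and 2 of 5 (40%, 11.8 to 76.9%). That share rose as well, on few peaks. Over all widths there, 12 of 36 H3K9me3 peaks lay on H3K4me3 at 200 to 500 and 3 of 11 at 500 to 1000. At 1000 and above it was 7 of 8, so the share over all widths did not rise at each step. The 4 peaks of the region at 1000 and above without H3K4me3, with scores of 1025 to 1413, were the 4 very wide ones between 5 and 7 Mb named above. Per kb of width, the median score was 268 (223 to 292) for H3K9me3 peaks on H3K4me3 and 74.6 (71.9 to 77.3) for those off it. In the rest of the chromosome these values were 232 (125 to 322) and 59.9 (58.0 to 61.8).

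The H3K4me3 list showed a smaller step of the same kind. The median score was 72.8 (61.9 to 88.5) for H3K4me3 peaks on H3K9me3 and 46.9 (38.2 to 61.8) for those off it. Their median widths were 901 and 882 bp. A like step was seen in the rest of the chromosome, with median scores of 65.9 (45.7 to 87.4) on and 43.8 (39.7 to 49.2) off H3K9me3. At scores of 200 and above, all H3K4me3 peaks of the region overlapped H3K9me3 (22 from 200 to 500, 6 from 500 to 1000 and 2 above), as against 5 of 12 in the rest. Over all scores, 183 of 222 did so in the region and 33 of 240 in the rest.

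**Figure D5:**
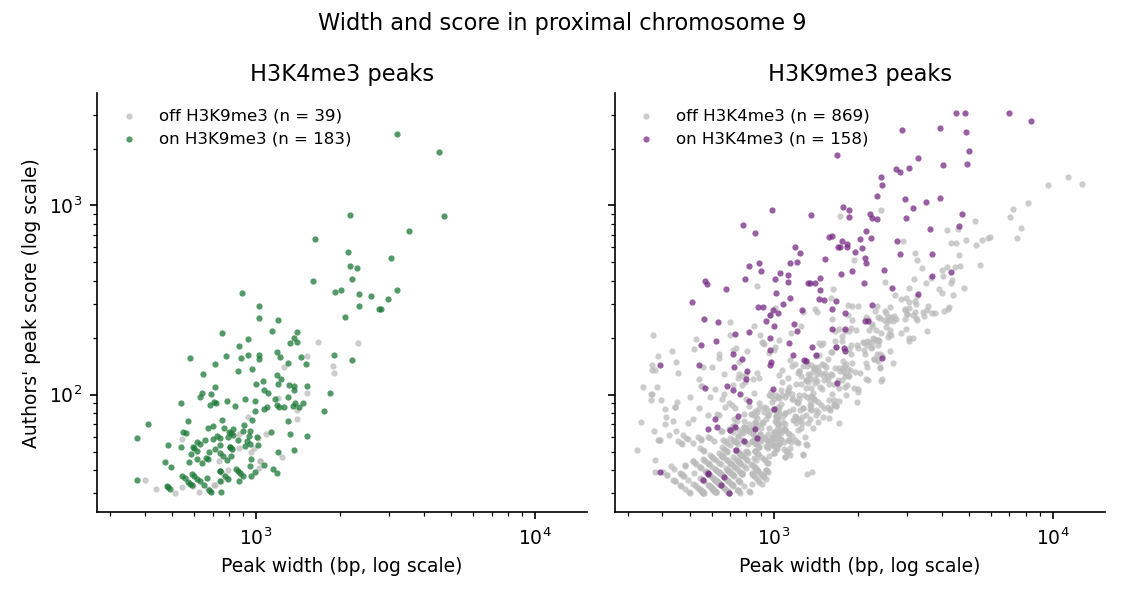
The authors' peak score against peak width (bp), both on log scales, for the 222 H3K4me3 peaks (left) and 1027 H3K9me3 peaks (right) of the proximal region, with peaks on the other mark in colour and peaks off it in grey. Most coloured H3K9me3 points lie above grey ones of like width, and their median score is 363 against 71.35.

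Scores of overlapping peaks rose together in the region. Spearman's rho between the H3K4me3 and H3K9me3 scores was 0.421 over its 192 pairs, which come from the same 2 libraries and in part share peaks, and 0.0251 over the 35 pairs of the rest. The rho between widths was 0.421 and 0.169. The H3K9me3 score was the higher of the pair in 181 of 192, a comparison between lists that depends on the depth of each library.

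The peaks with the highest scores of each mark lay on the other mark. The 10 H3K4me3 peaks with the highest scores, from 469 to 2382, all overlapped H3K9me3, and 8 of them lay in the cluster of 61. Over all H3K4me3 peaks of the region the overlap was already 183 of 222 (82.4%). The highest, chr9:12343624-12346824 with a score of 2382, matched the H3K9me3 peak chr9:12343628-12347582 with 2581. The next, chr9:12468215-12472739 with 1923, matched chr9:12468193-12472705 with 3100, so the borders of the pair nearly coincided. Then came chr9:8630624-8632796 with 892 and chr9:8372862-8377598 with 883.

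The 10 H3K9me3 peaks with the highest scores, from 1772 to 3100, all overlapped H3K4me3, beside 158 of all 1027 (15.4%). The peaks at 3100 were chr9:549532-554379, which carried 2 H3K4me3 peaks with a best score of 282, and chr9:12468193-12472705. A score of 3100 recurred in both lists on other chromosomes, so peaks at 3100 are not ordered among themselves by score. The peak chr9:8879933-8886896 followed with 3088, and its 5 H3K4me3 peaks had a best score of 410. High H3K9me3 scores thus went with H3K4me3 scores across a wide range. In the rest of the chromosome the 3 highest H3K4me3 peaks, with scores of 492, 485 and 459, were all off H3K9me3. So were 207 of all 240 H3K4me3 peaks there.

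Against other parts of the genome, the region ranked higher for H3K4me3 than for H3K9me3. Among 173 full 15-Mb tiles of chromosomes 1 to 20 and X, it ranked 1 in H3K4me3 peaks, H3K4me3 cover and H3K4me3 peaks on H3K9me3, 9 in H3K9me3 peaks and 10 in H3K9me3 cover. The median tile held 33 H3K4me3 peaks, 146 H3K9me3 peaks and 3 H3K4me3 peaks on H3K9me3. The other 7 tiles of chromosome 9 held 20 to 60 H3K4me3 peaks and 0 to 24 on H3K9me3. By the share of H3K4me3 peaks on H3K9me3 the region ranked 7. Because the region was chosen for its density and 1 tile matches its borders, these ranks are a description and no test. Tile borders can cut other dense stretches. Chromosome 7, for example, held 127 H3K4me3 peaks from 0 to 15 Mb and 166 from 15 to 30 Mb.

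The first 15 Mb of chromosome 7 and the stretch from 50 to 80 Mb of chromosome 1 carried both marks in a similar way. On chromosome 7, 89 of 127 H3K4me3 peaks lay on H3K9me3 (70.1%, 61.6 to 77.4%), and on chromosome 1, 160 of 209 (76.6%, 70.4 to 81.8%), which overlap the 76.9 to 86.9% of chromosome 9. Median H3K4me3 gaps were 4.08 and 3.97 kb, close to the 3.68 kb of chromosome 9. H3K4me3 was denser on chromosome 9, at 14.8 peaks per Mb against 8.47 (7.06 to 10.1) and 6.97 (6.05 to 7.98). H3K9me3 was denser on chromosome 7, at 106.5 peaks per Mb (101 to 112), and at 74.8 (71.7 to 77.9) on chromosome 1 met the interval of chromosome 9.

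The share of H3K9me3 peaks that lay on H3K4me3 was not tested among the 3 stretches. It was 15.4% (13.3 to 17.7%) on chromosome 9, 4.26% (3.37 to 5.36%) on chromosome 7 and 6.69% (5.73 to 7.80%) on chromosome 1. Without its 5 clusters it was 5.65% (4.25 to 7.48%) on chromosome 9, which meets the values of both other stretches, whose own clusters were kept.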

How the data were processed

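ChIP-seq data for both histone marks were analysed from 2 deposited peak lists, 1 library per mark, with no pooling of libraries recorded. The submitters' processing notes name rn6, Bowtie 1.2, FastQC and bcl2fastq, with no roles. Peak names begin with MACS, per the files. No source used here gives the caller's settings, its control or the treatment of reads that match several places. The files hold the start, end and score of each peak as deposited by the authors, and what the score measures is not stated. They hold no read counts, so depth is unknown. Starts are printed counted from 1.

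Peaks were selected by start. Density was taken over 15 Mb and over the rest up to the last peak end. Gaps run from peak end to next start. Exact Poisson, Wilson and, for medians, binomial order-statistic intervals are at the 95% level. The members and rules were chosen with earlier results of these data known. Named peaks are the 10 highest by score (ties by width) and 5 widest per mark, the clusters and the densest windows, and the 3 highest per mark outside. Blocks, the window from 10 to 11 Mb, score classes and the setting without clusters were chosen after values were seen. No rn6 sequence or annotation was used, so genes and sequences are not given. Overlap and gap functions were tested on simulated data. Alternatives were a score filter, other borders, other overlap rules, joined peaks, start-to-start gaps and leaving out the densest windows. Software was Python 3.11.15 with matplotlib 3.10.9, scipy 1.17.1, pandas 2.3.3 and numpy 2.4.6.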

Additional observations from a re-analysis of the deposited data

How the results depend on the processing

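For the 12 summary values, 72 alternative values were computed, of which 30 stayed inside the main value's 95% interval. For cover, that interval was the Poisson interval of the peak count scaled to the cover, which leaves out the spread of peak widths. The region lay on the same side of the rest of chromosome 9 in 70 of the 72. The exceptions were the median H3K4me3 width with the score filter, 1024 bp against 1246.5 bp in the rest, and without the 5 clusters, 830 bp against 852.5 bp.

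With only peaks at or above the list's median score, H3K4me3 stood at 10.3 and H3K9me3 at 43.8 peaks per Mb, cover at 1.30% and 7.73%, median H3K9me3 width at 1361 bp, median scores at 94.85 and 143, the median H3K9me3 gap at 1.86 kb, and the overlaps at 87.1% of H3K4me3 and 18.3% of H3K9me3 peaks. With the border at 20 Mb, densities were 11.95 and 51.4 per Mb, cover 1.32% and 7.15%, and 76.6% of H3K4me3 peaks lay on H3K9me3. With the border at 14 Mb, H3K9me3 stood at 72.9 per Mb and 10.2% cover. Without the windows from 8 to 9 and 12 to 13 Mb, H3K4me3 stood at 7 per Mb, 0.674% cover, a median score of 53.1, a median gap of 9.78 kb and 62.6% on H3K9me3, and H3K9me3 at 58.8 per Mb, 8.34% cover and 7.07% on H3K4me3. Without the 5 clusters, a setting chosen after the data were seen, these were 5.61 per Mb, 0.534%, 52.55, 15.9 kb and 55.7%, and 56.5 per Mb, 7.90% and 5.65%, with a median H3K9me3 score of 74.1. With peaks closer than 1 kb joined, densities were 10.0 and 37.6 per Mb, median widths 1028.5 and 1398.5 bp, and H3K9me3 cover 10.6%. Within a distance of 1 kb, 19.7% of H3K9me3 peaks met H3K4me3. From start to start, the median H3K9me3 gap was 3.00 kb. The setting within 1 kb counts more pairs and that from start to start adds the peak width, while the others change the peaks or the span that enter, by construction. No paired analysis was possible because each mark has 1 library. Depth is unknown, so no detection limit can be given for sequence without peaks, such as H3K4me3 from 5 to 7 Mb.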

Other observations

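Outside the first 15 Mb, chromosome 9 carried both marks together mainly at 2 distal places. These were chosen after their values were seen. From 105 to 107 Mb, 13 of 16 H3K4me3 peaks lay on H3K9me3, among 90 H3K9me3 peaks with scores up to 1244. From 117 to 118 Mb, all 8 H3K4me3 peaks lay on H3K9me3, among 30 H3K9me3 peaks. The 3 highest H3K9me3 scores of the rest of the chromosome, 2091, 1494 and 1389, were in this second place, and each of those peaks carried H3K4me3. Both places together held 21 of the 33 H3K4me3 peaks on H3K9me3 in the rest of the chromosome.

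The densest H3K4me3 window of the rest, from 113 to 114 Mb, was of the other kind. Of its 16 H3K4me3 peaks 3 lay on H3K9me3, and its 4 H3K9me3 peaks had scores of at most 67.7. The single cluster of at least 10 H3K4me3 peaks in the rest of chromosome 9 lay at the end of this window, at chr9:113936020-114015851. This cluster held 11 H3K4me3 peaks in 79.8 kb, of which 3 lay on H3K9me3. Its H3K4me3 density, 13.8 peaks per 100 kb, was inside the 12.6 to 19.3 of the 5 proximal clusters, whereas H3K9me3 peaks covered 3.45% of it against 26.3 to 41.0% of those.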
